A study of Mus musculus with 49 samples.

Results

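The HER family receptors and the EGF-like ligands that bind them were followed across 6 organs, with and without injected iron oxide nanoparticles, in mice carrying a human HER2 transgene and palpable mammary tumors. The 10 genes, taken from a named list, were the receptors Erbb2, Erbb3, Erbb4 and Egfr and the ligands Areg, Ereg, Hbegf, Tgfa, Nrg1 and Btc. All 10 were found among the 55487 mouse genes of the count table. RNA sequencing covered 49 libraries of 6 HuHER2 transgenic mice, which were checked for tumors by palpation from 7 months of age. The nanoparticle-associated (NA) libraries came from cells of BP-treated mice, sorted magnetically after digestion of the tissue to single cells: 3 each of tumor, spleen, liver and bone marrow, and 1 of lymph node. BP is the code name of an iron oxide nanoparticle, given once at 5 mg of iron per mouse. The BP bulk libraries came from undigested pieces of the same organs of the same 3 mice, plus lung, and the PBS bulk libraries from the 6 organs of 3 mice given saline. The design text puts the collection at 7 days after treatment, whereas a protocol label gives 31 days. Every mouse, controls included, carried the transgene, so no group shows these genes without it. The promoter that drives the transgene is not given in the sources used here. Replicate numbers of NA and BP bulk libraries name the same mouse, as they do across organs, whereas those of BP and PBS mice share only a number.

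HER receptors are tyrosine kinases of the cell surface that work in pairs. Erbb2 binds no ligand of its own and is the favored partner of the others, Erbb3 has a weak kinase and signals mainly through PI3 kinase when paired, and Egfr and Erbb4 bind ligands and have active kinases. The ligands are made as membrane-bound precursors and released by shedding proteases. Areg, Tgfa, Ereg, Hbegf and Btc bind Egfr, the last 3 of them also Erbb4, and Nrg1 binds Erbb3 and Erbb4. In mammary tumors with raised HER2, the pair of Erbb2 and Erbb3 is the best known driver of growth.

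The human HER2 transcript has no row of its own in the mouse table. Reads of it that align to mouse Erbb2 would be counted there, so the values of Erbb2 in every library may hold both, and the share of each cannot be told apart. Positions are those of GRCm38, the build of the files, with genes as in GENCODE M21. Erbb2 lies at chr11:98412470-98437716 and Egfr at chr11:16752203-16918158, both on the plus strand. Mien1 overlaps Erbb2 and Egfros overlaps Egfr on the opposite strand. The strand setting of the counting is not given in the sources used here, so reads of these overlapping partners could not be separated. Erbb3 lies at chr10:128567523-128589652 and Erbb4 at chr1:68032186-69108059, both on the minus strand. Ereg (chr5:91074622-91093646, plus strand), Areg (chr5:91139599-91148432, plus strand) and Btc (chr5:91357261-91402994, minus strand) are neighbors on chromosome 5. Tgfa lies at chr6:86195223-86275719 on the plus strand, Nrg1 at chr8:31814551-32884029 and Hbegf at chr18:36504927-36515805, both on the minus strand.

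Library totals ran between 9362240 and 19734800 counts. Levels are given as CPM, the count of a gene scaled to library size, with totals adjusted by TMM over all 49 libraries. A count of 0 in a library allows up to 3 counts, which came to between 0.11 and 0.765 CPM over the libraries, counting error only. Marker genes set the organs apart as labelled. The sum of 16 mammary epithelium markers was 10317 to 24259 CPM in bulk tumors and at most 2684 CPM in any other bulk organ, and the sum of 7 hepatocyte markers was 134827 to 198308 CPM in bulk livers. The 3 bulk tumors of a group differed in what they held: adipocyte markers summed to 2886 CPM in BP tumor 1 and skeletal muscle markers to 3179 CPM in BP tumor 2. Mitochondrial transcripts made up 19.5%, 8.33% and 3.97% of counts in BP tumors 1, 2 and 3 and 3.06% to 4.06% in PBS tumors. In PBS lymph nodes 1, 2 and 3 they made up 8.79%, 28.6% and 11.6%. In bulk tissue, fewer cells of a type and less RNA per cell cannot be told apart.

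Without nanoparticles, the tumor held more transcript of 8 of the 9 members tested than the mean of the other 5 organs (edgeR's quasi-likelihood test with Benjamini-Hochberg adjustment over 17696 genes; 50.7% of all genes passed in this comparison in either direction, 28.1% as higher and 22.6% as lower). All 4 receptors were among them. Erbb2 had 108, 64.3 and 71.6 CPM in PBS tumors, against 47.3, 27.9 and 33.4 CPM in PBS lungs and 5.56, 7.31 and 10.3 CPM in PBS lymph nodes. PBS spleens had 2.86 to 3.44 CPM of Erbb2, PBS livers 2.14 to 3.6 CPM and PBS bone marrow 0.575 to 1.34 CPM. Every tumor stood above every lung, every lung above every lymph node and every lymph node above the remaining organs, of which spleen and liver overlapped. The log2 fold change of Erbb2 in tumor against the mean of the other organs was 4.12 ± 0.19 (SE, n = 3 mice; adjusted p = 6.96e-11). BP tumors had 39.8, 81.1 and 63.1 CPM of Erbb2 and BP lungs 36, 29.3 and 30.0 CPM, so that the tumors again stood above the lungs.

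Erbb3 and Egfr, unlike Erbb2, were abundant in both tumor and liver. Erbb3 had 106, 210 and 192 CPM in PBS tumors and 235, 212 and 162 CPM in PBS livers, ranges that overlapped. Every other PBS organ was lower, with 35.1 to 50.0 CPM in lungs, 8.26 to 20.2 CPM in lymph nodes and at most 5.07 CPM in spleens and bone marrow. The log2 fold change of Erbb3 was 3.35 ± 0.20 in tumor and 3.61 ± 0.20 in liver, each against the mean of its other 5 organs (adjusted p = 9.4e-10 and 7.73e-11). Which of the organs came first depended on the scaling: with plain library totals the PBS mean of Erbb3 was 206 CPM in tumor and 117 CPM in liver. Egfr had 324, 211 and 83.3 CPM in PBS livers and 12.0, 54.1 and 70.4 CPM in PBS tumors, with no overlap, although its level varied widely among mice in both. PBS lungs, at 18.6 to 23.5 CPM of Egfr, fell inside the range of the tumors. The log2 fold change of Egfr was 4.39 ± 0.32 in liver and 1.83 ± 0.35 in tumor (adjusted p = 3.41e-09 and 0.000315).

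Erbb4 was scarce everywhere. It had 0, 1.08 and 10.1 CPM in PBS tumors and 3.06, 0.119 and 7.63 CPM in BP tumors, so a single tumor in each group carried most of it. No count of Erbb4 was found in any PBS spleen, liver or bone marrow library. Erbb4 passed the test as higher in PBS tumor (adjusted p = 0.000668), with no fold given because organs in the comparison were at 0.

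**Figure D1:**
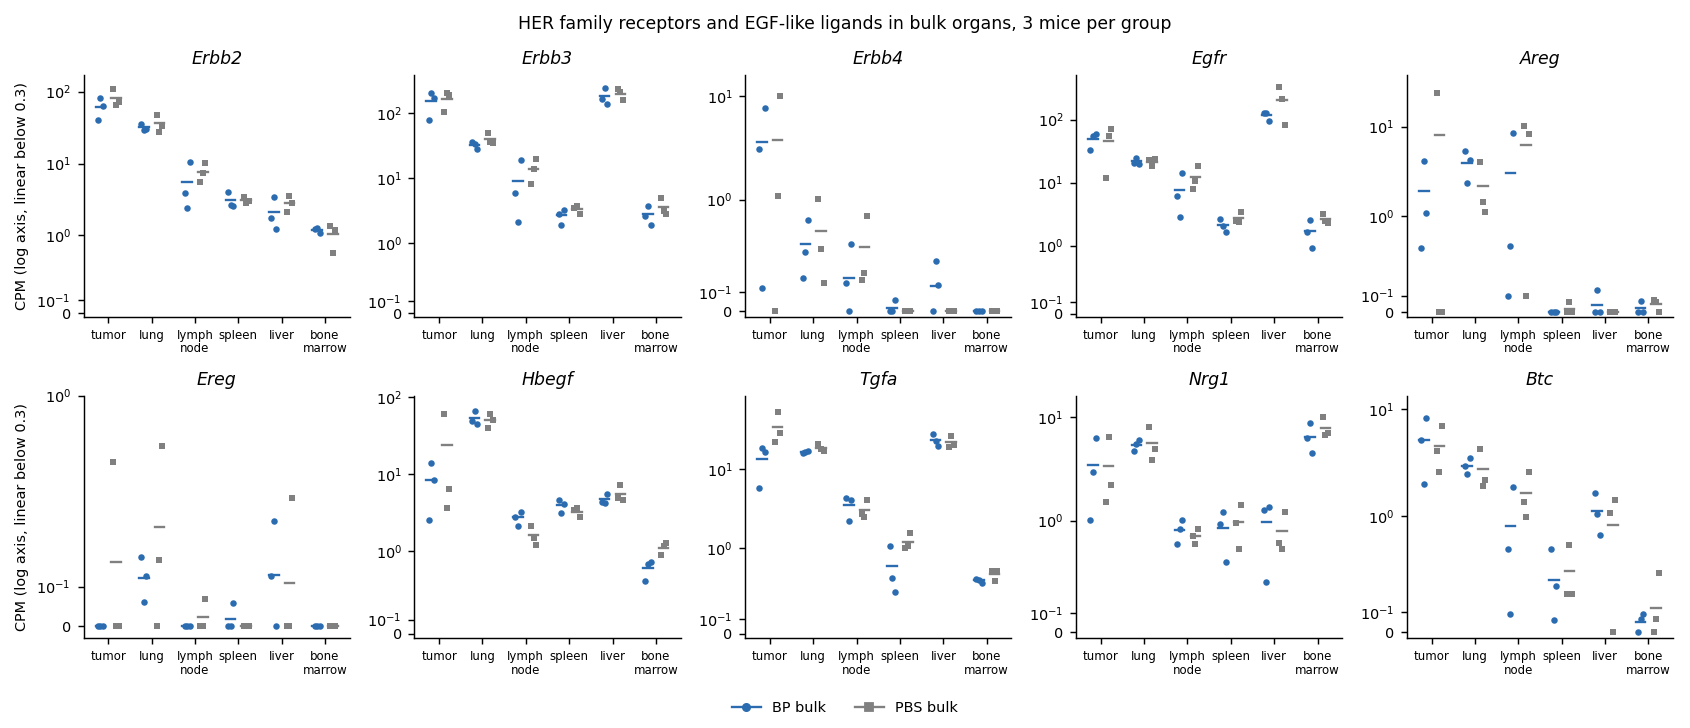
Level of each of the 10 genes in bulk organs, in CPM on a log axis, with 1 point per library and a bar at the mean, BP libraries left of PBS libraries in each organ. Erbb2 is highest in tumor (64.3 to 108 CPM in PBS mice), Erbb3 and Egfr are high in liver and tumor, Hbegf is highest in lung and Nrg1 in bone marrow.

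The ligands had no common organ. Hbegf, a heparin-binding ligand that also binds Erbb4, had 39.7, 59.9 and 50.7 CPM in PBS lungs, where its log2 fold change against the mean of the other organs was 3.74 ± 0.43 (adjusted p = 1.83e-06). PBS tumors had 60.9, 3.67 and 6.36 CPM of Hbegf, so 1 tumor reached the level of lung and the others did not. The call of Hbegf in tumor (2.48 ± 0.45) rested on that library: without PBS tumor 1 the log2 fold change was 0.16 (adjusted p = 0.698). Nrg1, the neuregulin ligand of Erbb3 and Erbb4, had 10.1, 6.77 and 6.95 CPM in PBS bone marrow and 7.99, 3.84 and 4.94 CPM in PBS lungs, ranges that overlapped. Nrg1 was higher than in the mean of the other organs in both (2.26 ± 0.34 in marrow, 1.73 ± 0.35 in lung). It had 1.52, 6.47 and 2.21 CPM in PBS tumors and was the only member of the 9 tested that did not pass there.

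Tgfa and Btc, both ligands of Egfr, were higher in PBS tumor than in the mean of the other organs. Tgfa had 21.9, 52.9 and 28.6 CPM in PBS tumors, 19.1, 26.5 and 20.3 CPM in PBS livers and 17.2 to 20.8 CPM in PBS lungs. Those 3 organs stood well above lymph node, spleen and bone marrow, which had at most 4.10 CPM. The order of the 3 means differed in BP mice, with 5.76, 18.4 and 16.4 CPM in BP tumors, 27.8, 22.5 and 19.4 CPM in BP livers and 15.9 to 17.1 CPM in BP lungs, so that every BP liver stood above every BP tumor. In PBS mice the log2 fold change of Tgfa was 3.24 ± 0.20 in tumor, 2.40 ± 0.21 in liver and 2.16 ± 0.21 in lung. Btc had 4.08, 2.59 and 7.03 CPM in PBS tumors, against 4.21, 1.92 and 2.18 CPM in PBS lungs, which overlapped, and its log2 fold change in tumor was 2.76 ± 0.52.

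Areg, a ligand of Egfr best known from mammary duct growth, was present or absent by library. It had 23.9, 0 and 0 CPM in PBS tumors and 10.1, 0.0987 and 8.27 CPM in PBS lymph nodes. BP mice showed the same unevenness, with 0.438, 4.10 and 1.08 CPM in tumors and 0.0994, 0.465 and 8.45 CPM in lymph nodes. Mammary epithelium markers summed to 84.6 to 1523 CPM in BP lymph nodes and 803 to 2316 CPM in PBS lymph nodes, against at most 69.4 CPM in bulk spleens and bone marrow. Their part in the lymph node values of the members was not tested. Areg passed as higher in PBS tumor (adjusted p = 0.00227) and PBS lymph node (adjusted p = 0.00934), with no fold given because the PBS livers were at 0. Without PBS tumor 1 it did not pass in tumor. Ereg, encoded beside Areg on chromosome 5, did not reach the count filter: its highest PBS library was a lung at 0.582 CPM.

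The other organs were read against the same mean. In lung, 6 of 9 members were higher and none lower (background 50.6%, of which 29.2% higher and 21.5% lower), among them Erbb2 at 2.7 ± 0.20; Erbb3 (0.86 ± 0.23) and Btc (1.90 ± 0.54) lost the call without PBS lung 1 (adjusted p = 0.0640 and 0.0989), and Erbb3 also with BP mice in place of PBS mice (adjusted p = 0.0645). In liver, 3 were higher and 2 lower (background 64.3%, of which 29% higher and 35.3% lower; the median log2 fold change of all genes there was -0.37), the lower ones being Erbb2 at -1.72 and Nrg1 at -1.67. In lymph node, Areg was higher, whereas Erbb3, Hbegf, Tgfa and Nrg1 were lower (background 33.8%, of which 20.2% higher and 13.6% lower). Of these, Hbegf (-2.23) lost its call without PBS lymph node 2 or 3 (adjusted p = 0.0574 and 0.0745), and Tgfa (-0.99) without PBS lymph node 2 (adjusted p = 0.0530). Tgfa in lymph node was -0.21 (adjusted p = 0.672) when BP mice took the place of PBS mice. In spleen, 5 were lower and none higher (background 47%, of which 25.3% higher and 21.8% lower), with Erbb3 at -3.46 and Egfr at -3.07; Nrg1 (-1.32) lost its call without PBS spleen 1 or 2 (adjusted p = 0.0790 and 0.150). In bone marrow, Nrg1 was higher and 6 members were lower (background 57.9%, of which 27.5% higher and 30.4% lower), the lowest being Tgfa at -4.24 and Erbb2 at -3.52. The shares of members that passed lie above the backgrounds, except in liver, where the share lies below. The cause was not tested.

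Per length of merged exons, Erbb3 was the most abundant receptor transcript of the tumor among the rows of the mouse table, ahead of Erbb2. Human HER2 transcript that does not align to mouse Erbb2 is not in these levels, so the order does not cover it. Mean levels in CPM per kilobase were 48.8 for Erbb3 and 17.2 for Erbb2 in NA tumor cells, 25.6 and 11.8 in BP tumors and 28.2 and 15.6 in PBS tumors. PBS tumor 1 was the exception: Erbb2 made up 52.6% of its summed receptor level and Erbb3 44.8%. In PBS livers Erbb3 (33.7 CPM per kilobase) and Egfr (18.2 CPM per kilobase) together stood far above Erbb2 (0.551 CPM per kilobase). Hbegf was the leading ligand per length in NA tumor cells, at 69.6 CPM per kilobase, followed by Areg at 19.7 and Tgfa at 9.27 CPM per kilobase.

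NA cells were compared with bulk tissue of the same organ. In tumor, 4 of the 10 members were higher in NA cells than in BP bulk and none lower (background 9.04% of 14615 genes, 5.87% as higher and 3.17% as lower), and all 4 were ligands of Egfr. Hbegf had 357, 395 and 258 CPM in NA tumor cells, against 2.55, 14.1 and 8.40 CPM in BP tumors. Every NA library was above every bulk tumor of either treatment, and the log2 fold change was 5.36 ± 0.62 (SE; adjusted p = 0.0110). Areg had 24.7, 17.6 and 29.4 CPM in NA tumor cells, against 0.438, 4.10 and 1.08 CPM in BP tumors (3.69 ± 0.75; adjusted p = 0.0354). Tgfa had 57.6, 69.0 and 53.9 CPM in NA tumor cells, against 5.76, 18.4 and 16.4 CPM in BP tumors (2.17 ± 0.40; adjusted p = 0.0302). Neither gene's groups overlapped, though PBS tumor 1 had as much Areg as the NA cells. Ereg totalled 41 counts over the NA tumor libraries and 0 over the BP tumors, at least 13.5-fold higher when the BP group is set at its limit of 3 counts (adjusted p = 0.0284). Ereg passed the count filter only through the NA libraries. So did Areg, whose counts in BP tumors 1, 2 and 3 were 6, 69 and 24, the first too low for the filter. The calls of both, and the count of 4 of 10 that includes them, are a description.

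The receptors did not pass this comparison. Erbb3 had 269, 308 and 304 CPM in NA tumor cells, against 80.5, 208 and 174 CPM in BP tumors. The groups did not overlap, and the log2 fold change was 0.95 ± 0.34 (adjusted p = 0.105). Erbb2 had 85.9, 108 and 74.1 CPM in NA tumor cells, against 39.8, 81.1 and 63.1 CPM in BP tumors, which overlapped (0.56 ± 0.28; adjusted p = 0.218). Egfr had 63.5, 66.6 and 69.1 CPM in NA tumor cells and 33.4, 55.7 and 59.1 CPM in BP tumors, with no overlap (0.44 ± 0.23; adjusted p = 0.230). Nrg1 had 12.9, 6.53 and 17.5 CPM in NA tumor cells, against 1.02, 2.97 and 6.28 CPM in BP tumors. Those groups did not overlap and the log2 fold change was 1.87 ± 0.66 (adjusted p = 0.107; 0.0288 with DESeq2 and 0.00857 with the spread shared over all 49 libraries). Erbb4 and Btc overlapped between the fractions.

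The tumor calls depended on single libraries. Without NA tumor 1 or NA tumor 2 none of the 4 passed, the adjusted p of Hbegf being 0.0670 and 0.0627, and without NA tumor 3 only Hbegf did. Without BP tumor 1 Hbegf and Tgfa passed, without BP tumor 2 Hbegf and Areg, and without BP tumor 3 all but Areg (adjusted p = 0.0526). With the mouse as a block, Hbegf and Tgfa passed, whereas Areg (adjusted p = 0.0515) and Ereg (adjusted p = 0.0726) did not. Mammary epithelium markers summed to 15409 to 18153 CPM in NA tumor cells and 10317 to 24259 CPM in BP tumors, and macrophage markers to 103 to 118 CPM in NA tumor cells and 222 to 254 CPM in BP tumors. Adipocyte markers summed to 2.46 to 4.87 CPM in NA tumor cells and 78.1 to 2886 CPM in BP tumors, with all 4 tested lower, and fibroblast markers to 286 to 431 CPM in NA tumor cells and 255 to 1850 CPM in BP tumors, with 1 of 4 lower. The part of these cells in the member values was not tested. NA cells were digested and sorted and bulk tissue was not, so fraction and dissociation cannot be told apart. A list of 10 genes known to rise during dissociation, among them Fos, Jun and Atf3, summed to 4312 to 7254 CPM in NA tumor cells and 326 to 467 CPM in BP tumors, and 9 of the 10 were higher. Its part in the ligand results was not tested.

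**Figure D2:**
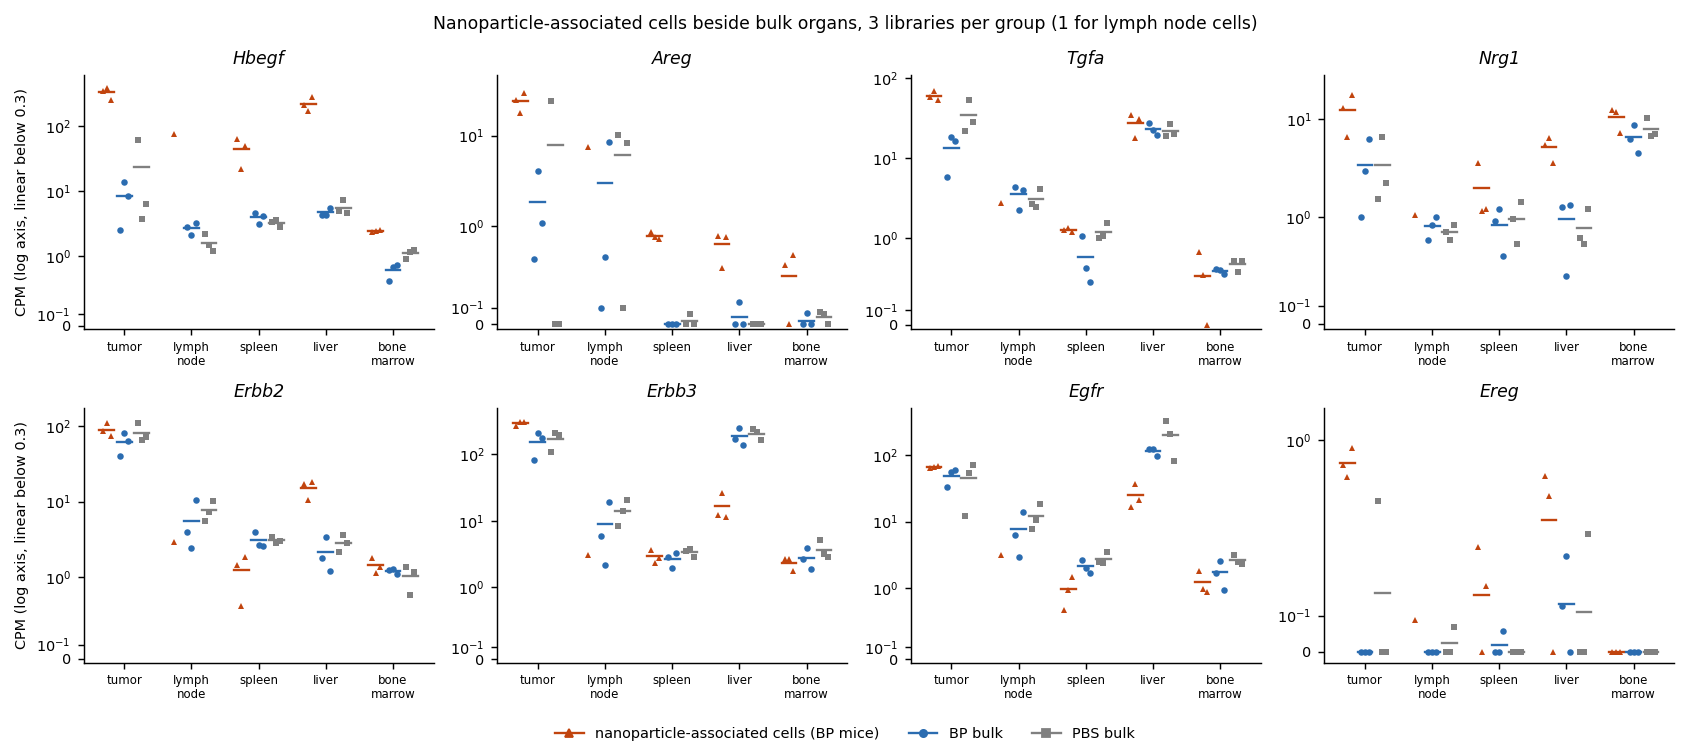
Level of Hbegf, Areg, Tgfa, Nrg1, Erbb2, Erbb3, Egfr and Ereg in NA cells and in BP and PBS bulk tissue, in CPM on a log axis, 1 point per library. The organs are tumor, spleen, liver, bone marrow and lymph node. Erbb4 and Btc are not drawn. Hbegf in NA cells lies above bulk in all 5 organs, whereas Erbb3 and Egfr in NA liver cells lie below bulk liver.

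Hbegf was higher in NA cells of all 4 organs tested, in bone marrow as a description only. In liver it had 214, 171 and 280 CPM in NA cells, against 4.32, 4.24 and 5.53 CPM in BP livers (5.72 ± 0.24; adjusted p = 2.08e-07). In spleen it had 65.0, 22.1 and 49 CPM in NA cells, against 4.56, 3.11 and 4.14 CPM in BP spleens (3.57 ± 0.43; adjusted p = 0.00144). In bone marrow its level was far lower, with 2.30, 2.45 and 2.51 CPM in NA cells, against 0.411, 0.672 and 0.728 CPM in BP marrow (2.01 ± 0.34; adjusted p = 0.0132). No NA library overlapped a bulk library of its organ. In bone marrow Hbegf had 5, 10 and 8 counts in the BP libraries and 31, 28 and 26 counts in the NA libraries. It passed the count filter there only through the NA libraries, so the marrow call is a description. The marrow call was lost without BP marrow 1 or 2 or NA marrow 2 (adjusted p = 0.0616, 0.0676 and 0.0631) and with the spread shared over all 49 libraries (adjusted p = 0.224). The lone NA lymph node library, which no test could include, had 76.3 CPM of Hbegf, against 2.78, 2.14 and 3.26 CPM in BP lymph nodes. The dissociation list moved with Hbegf in each organ, summing to 17467 to 21083 CPM in NA liver cells and 164 to 255 CPM in BP livers. It summed to 3077 to 9521 CPM in NA spleen cells and 176 to 207 CPM in BP spleens, and to 1205 to 1235 CPM in NA marrow cells and 151 to 229 CPM in BP marrow. Its part was not tested there either.

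In liver, 3 receptors and 2 ligands passed. Of 6 members tested, 3 were higher and 2 lower in NA liver cells (background 74.8%, of which 37.3% higher and 37.5% lower), a share near the background, from which nothing particular to the members is read. Erbb2 had 17.0, 10.4 and 18.1 CPM in NA liver cells, against 1.78, 3.44 and 1.21 CPM in BP livers (2.96 ± 0.39, adjusted p = 0.000101). In counts this was 129, 60 and 71, against 14, 26 and 9. The BP livers alone did not meet the count filter, so the call of Erbb2 is a description. The count of 3 higher, which includes Erbb2, is a description too. Erbb3 had 12.4, 26.4 and 11.2 CPM in NA liver cells, against 168, 249 and 138 CPM in BP livers (-3.30 ± 0.34; adjusted p = 2.41e-05). Egfr had 16.8, 37.0 and 20.9 CPM in NA liver cells, against 127, 126 and 96.5 CPM in BP livers (-2.07 ± 0.27; adjusted p = 0.000107). For these 3 receptors the NA and bulk libraries were fully apart, with Erbb2 higher and Erbb3 and Egfr lower in NA cells. The share of all genes fully apart was not counted, so nothing particular to the receptors is read from this. Nrg1 had 5.39, 6.42 and 3.57 CPM in NA liver cells, against 1.27, 0.265 and 1.35 CPM in BP livers (2.56 ± 0.49, adjusted p = 0.00119). Its counts were 41, 37 and 14 in NA liver cells and 10, 2 and 10 in BP livers. It passed the count filter through the NA libraries, so its call is a description. Tgfa, at 34.1, 18.1 and 30.6 CPM in NA liver cells and 27.8, 22.5 and 19.4 CPM in BP livers, overlapped (0.40 ± 0.24; adjusted p = 0.160), and without NA liver 2 it passed at 0.63 (adjusted p = 0.00876). Cell markers moved with these genes. The hepatocyte sum was 22466 to 73404 CPM in NA liver cells and 134827 to 170234 CPM in BP livers. The sum of 4 endothelium markers was 2135 to 3025 CPM in NA liver cells and 149 to 199 CPM in BP livers, with all 4 higher. All 3 B cell markers and 4 of 5 macrophage markers were also higher. Their part in the receptor values was not tested. Mitochondrial transcripts made up 48.2% to 57.2% of counts in NA liver cells and 5.67% to 7.06% in BP livers. With those transcripts taken out, the 5 calls held, at 2.91 for Erbb2, -3.36 for Erbb3, -2.12 for Egfr, 2.51 for Nrg1 and 5.66 for Hbegf.

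Spleen and bone marrow gave fewer calls. In spleen 2 of 7 members were higher and none lower (background 42.2%, of which 20.2% higher and 22% lower), Hbegf and Areg. Areg totalled 36 counts over the NA spleen libraries and 0 over the BP spleens, at least 12.5-fold higher (adjusted p = 0.00365), a call lost with the spread shared over all libraries (adjusted p = 0.0727). It passed the count filter only through the NA libraries, so this call, and the count of 2 of 7 that includes it, are a description. Erbb2 had 1.45, 0.420 and 1.87 CPM in NA spleen cells, against 3.99, 2.68 and 2.59 CPM in BP spleens. It lay lower in every NA library (-1.23 ± 0.51; adjusted p = 0.0915), and with the mouse as a block it passed at -1.36 (adjusted p = 0.0406). Egfr gave -1.11 ± 0.46 (adjusted p = 0.0902), Tgfa 1.16 ± 0.51 (adjusted p = 0.107) and Nrg1 1.27 ± 0.61 (adjusted p = 0.140) in spleen. Without BP spleen 1, Tgfa passed at 1.84 (adjusted p = 0.0275). In bone marrow Hbegf was the 1 of 5 members that passed (background 7.69%, of which 4.8% higher and 2.9% lower). That count rests on a gene that passed the filter only through the NA libraries, so it is a description. Nrg1 had 12.2, 11.7 and 7.15 CPM in NA marrow cells, against 6.24, 8.73 and 4.46 CPM in BP marrow, which overlapped (0.69 ± 0.29; adjusted p = 0.182). With the mouse as a block it passed at 0.71 (adjusted p = 0.0309). DESeq2 called 5, 2, 5 and 1 members in tumor, spleen, liver and bone marrow, among 3303, 6584, 9640 and 1528 genes called in all.

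**Figure D3:**
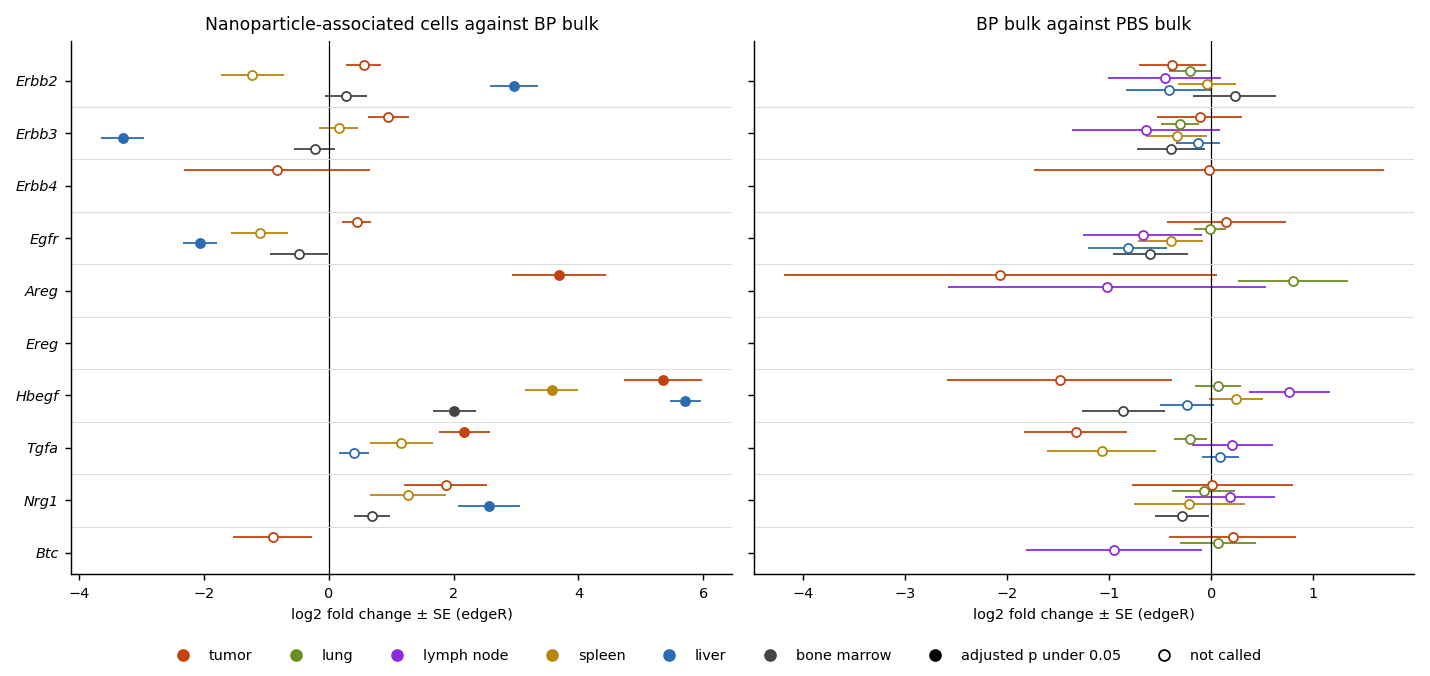
Log2 fold changes of the members with their standard errors, for NA cells against BP bulk and for BP against PBS bulk, by organ, with calls marked. Ereg in NA tumor cells and Areg in NA spleen cells, which passed against BP bulk at 0, are not drawn. Hbegf stands at 5.36 ± 0.62 in NA tumor cells and at 5.72 ± 0.24 in NA liver cells, and no BP against PBS value is marked as called.

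Set against one another in a single fit of 8 groups, the differences between the fractions were not alike in all organs. Tumor stood above the mean of the other 3 organs for Erbb3 (2.06 on the log2 scale; adjusted p = 0.00107), Egfr (1.64; adjusted p = 0.00517), Hbegf (1.55; adjusted p = 0.0286) and Tgfa (1.65; adjusted p = 0.0282), 4 of 9 members with a background of 23.8% (8.43% higher, 15.4% lower). Hbegf lost this call without NA tumor 1, NA tumor 2 or BP tumor 1 (adjusted p = 0.0572, 0.0682 and 0.0618), and Tgfa without BP spleen 1, NA tumor 2 or BP tumor 1 (adjusted p = 0.0531, 0.0627 and 0.0630). Liver stood above the mean of the other organs for Erbb2 (3.01; adjusted p = 2.32e-05) and Hbegf (1.997; adjusted p = 0.00304) and below it for Erbb3 (-3.69; adjusted p = 5.49e-07) and Egfr (-1.78; adjusted p = 0.000957), 4 of 9 members with a background of 53.7% (29.4% higher, 24.3% lower). Spleen stood below for Erbb2 (-2.42; adjusted p = 0.00148; background 18.2%, 8.63% as lower) and bone marrow for Hbegf (-2.81; adjusted p = 0.0109; background 15%, 7.22% as lower). The call in marrow was lost without BP marrow 2 (adjusted p = 0.0522).

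Summed per length, the balance lay further toward ligand transcripts in NA cells than in bulk tissue. The receptor sums hold rows of the mouse table only, without human HER2 transcript that does not align to mouse Erbb2. In tumor the ratio of summed ligand to summed receptor CPM per kilobase was 1.57, 1.39 and 1.25 in NA cells, against 0.124, 0.179 and 0.163 in BP tumors. PBS tumors had ratios of 0.933, 0.194 and 0.142, the first being the library with high Areg and Hbegf. In liver the ratio was 7.39, 4.003 and 8.68 in NA cells, against 0.145, 0.0900 and 0.140 in BP livers. In spleen the ligand sum was 14.8, 5.53 and 11.1 CPM per kilobase in NA cells, over receptor sums of 0.925, 0.553 and 0.938. BP spleens had ligand sums of 1.31, 0.839 and 1.01 CPM per kilobase over receptor sums of 1.47, 1.02 and 1.19. In bone marrow it was 2.20, 2.29 and 2.57 in NA cells, against 0.918, 1.01 and 1.08 in BP marrow. No NA library overlapped bulk tissue of its organ. Lungs were the bulk organ nearest to balance with high levels of both, at 1.23, 1.41 and 1.35 in BP mice and 0.844, 1.31 and 1.06 in PBS mice. The share of Hbegf in the summed ligand level was 60.1% to 75.7% in NA tumor cells and 17.6% to 29.5% in BP tumors, and 86.8% to 90.6% in NA liver cells and 15.7% to 25.9% in BP livers.

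**Figure D4:**
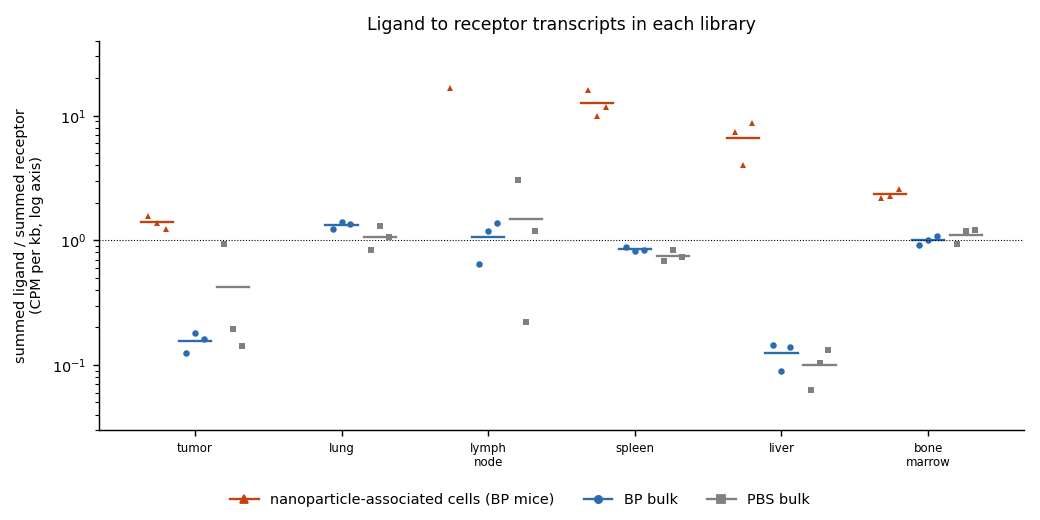
Ratio of the summed level of the 6 ligands to that of the 4 receptors, both in CPM per kilobase, by organ on a log axis. Each library is 1 point, with NA, BP bulk and PBS bulk libraries in separate colors, and a dotted line marks equal sums. NA tumor cells lie above the line of equal sums (ratios 1.25 to 1.57) and BP tumors below it (0.124 to 0.179).

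After the nanoparticle alone, comparing BP with PBS bulk tissue, no member passed in any organ. Of 41 tests (9 in tumor, 8 each in lung and lymph node, 6 in spleen, 5 each in liver and bone marrow) 0 were called by edgeR and 0 by DESeq2, and 1 had an unadjusted p under 0.05. With edgeR the background was 0% of genes in every organ but liver, where 0.0235% passed. DESeq2 called 138 genes in tumor, 0 in lung, 11 in lymph node, 0 in spleen, 37 in liver and 4 in bone marrow. That 1 member was Tgfa in tumor, with 5.76, 18.4 and 16.4 CPM in BP tumors, against 21.9, 52.9 and 28.6 CPM in PBS tumors. Every BP tumor lay below every PBS tumor, and the log2 fold change was -1.33 ± 0.51 (95% interval -2.52 to -0.14; adjusted p = 0.797). With the spread shared over all 49 libraries it was -1.34 (adjusted p = 0.0198). The share of all genes that passed in that fit is not given here, so this call stands without a background.

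Other members of the tumor were less clear still. Erbb2 had 39.8, 81.1 and 63.1 CPM in BP tumors, against 108, 64.3 and 71.6 CPM in PBS tumors (-0.38 ± 0.33; 95% interval -1.16 to 0.40; adjusted p = 0.838). The groups overlapped. Hbegf gave -1.49 ± 1.10 in tumor, and without PBS tumor 1 the sign turned (0.75). In liver Egfr had 127, 126 and 96.5 CPM in BP mice, against 324, 211 and 83.3 CPM in PBS mice (-0.82 ± 0.39; 95% interval -1.70 to 0.06; adjusted p = 0.999), with BP livers inside the range of the PBS livers. Erbb3 in liver gave -0.13 ± 0.22 and Erbb2 in lung -0.21 ± 0.21, and each turned sign without 1 library (0.04 without BP liver 3, 0.03 without PBS lung 1). In lymph node Hbegf had 2.78, 2.14 and 3.26 CPM in BP mice, against 2.15, 1.48 and 1.18 CPM in PBS mice, which overlapped (0.77 ± 0.40; adjusted p = 0.866). In bone marrow it had 0.411, 0.672 and 0.728 CPM in BP mice, against 0.895, 1.15 and 1.26 CPM in PBS mice, which did not overlap (-0.86 ± 0.40; 95% interval -1.77 to 0.05). Tests of whether the effect of BP differed between organs gave 0 calls among 54, with 2 at an unadjusted p under 0.05, both in tumor (background 4.06% in tumor, of which 3.21% higher and 0.854% lower, and 0% in each other organ).

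Genes that act around the receptors were read from lists. In NA tumor cells against BP bulk, 1 of 4 other EGF-like ligands was higher: Epgn, a ligand of Egfr encoded on chromosome 5 with the others, had 2.45, 1.94 and 2.41 CPM in NA tumor cells, against 0, 0 and 0.181 CPM in BP tumors (adjusted p = 0.0324). Epgn, too, passed the count filter only through the NA libraries. Among 5 shedding proteases and their regulators, Rhbdf2 (1.96 ± 0.31) and Rhbdf1 (1.31 ± 0.26), both partners of the sheddase Adam17, were higher. Of 20 adaptors and relays 3 were higher, the docking protein Gab1 (1.10 ± 0.19), the Ras activator Sos1 (1.11 ± 0.20) and the kinase Braf (1.06 ± 0.24), with a list median of 0.43 against -0.03 for all genes. Of 14 feedback inhibitors 5 were higher and none lower (list median 0.84), and of 10 transcripts known to rise after receptor signaling 7 were higher (list median 2.53). Errfi1, an inhibitor that binds the kinases of Egfr and Erbb2, had 578, 398 and 780 CPM in NA tumor cells, against 66.1, 59.5 and 136 CPM in BP tumors (2.76 ± 0.42; adjusted p = 0.0207). Dusp6, a phosphatase of ERK, had 718, 549 and 899 CPM in NA tumor cells, against 84.6, 197 and 164 CPM in BP tumors (2.31 ± 0.36; adjusted p = 0.0220). Dusp4 (2.01 ± 0.19) and Dusp5 (3.25 ± 0.37) were higher too, as were Fos (4.82 ± 0.38), Egr1 (3.40 ± 0.42) and Ier3 (3.10 ± 0.44). Fosl1, a partner of Jun, had 50.5, 75.4 and 20.4 CPM in NA tumor cells, against 0, 0 and 0.226 CPM in BP tumors (adjusted p = 0.00960), again a gene that passed the filter through the NA libraries. These counts stand beside 9.04% of all genes called in this comparison. Fos and Egr1 also stand in the dissociation list.

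The lists were also read in the other organs. Feedback inhibitors were higher for 7 of 14 and lower for 1 in NA spleen cells (42.2% of all genes called), and higher for 6 of 12 in NA marrow cells (7.69%). In NA liver cells, where 74.8% of all genes were called, they were higher for 9 of 14 and lower for 3, a share near that background. In liver Dusp5 (7.26), Dusp4 (4.39), Spry2 (3.63) and the ubiquitin ligase Cbl (1.91) were higher. Errfi1, picked for liver after its values were seen, was lower there, with 93.0, 112 and 139 CPM in NA liver cells, against 569, 775 and 1255 CPM in BP livers (-2.76 ± 0.31; adjusted p = 3.55e-05). Grb7, an adaptor of Erbb2 encoded next to it, was lower too (-4.02 ± 0.14). All 5 shedding genes were higher in NA liver cells, among them Timp3, an inhibitor of Adam17 (3.48 ± 0.22), beside 37.3% of all genes higher. In BP against PBS bulk tissue, no gene of these lists passed in any organ.

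In PBS tumors against the mean of the other organs, the feedback inhibitors were higher for 12 of 14 and lower for 2, beside 28.1% and 22.6% of all genes (list median 1.88, all genes 0.01), among them Spred1 (2.30), Lrig1 (2.24), Dusp4 (3.61) and Dusp6 (1.85). All 9 tested signaling transcripts were higher, with Etv4 at 6.73, Etv5 at 3.82, Ier3 at 3.92 and Phlda1 at 3.30. Of 7 tested neighbors of Erbb2 on chromosome 11, Grb7 (2.23), Pgap3 (2.02), Mien1 (0.87) and Stard3 (0.71) were higher and Ikzf3, a lymphocyte factor, was lower (-4.92). None of the 5 neighbors tested passed in NA tumor cells against BP tumors, Grb7 giving 0.97 ± 0.33 (adjusted p = 0.0974).

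Promoter sequence is shown for 3 of the ligands that are neighbors or that rose together in NA tumor cells, to let the members that passed (Areg, Tgfa) be read beside one that did not (Btc). RefSeq entries on GRCm38.p6 matched 6 of the 10 members; Erbb3, Ereg, Hbegf and Nrg1 had no entry. Each line holds the 250 bases before the start of the gene, 5′ to 3′ on the strand of the gene, with capitals for GGGCGG (the GC box) and TGACGTCA (the cyclic AMP response element), each searched on both strands. The windows are chr5:91139349-91139598 (plus strand) for Areg, chr6:86194972-86195221 (plus strand) for Tgfa and chr5:91402995-91403244 (minus strand) for Btc.
Areg: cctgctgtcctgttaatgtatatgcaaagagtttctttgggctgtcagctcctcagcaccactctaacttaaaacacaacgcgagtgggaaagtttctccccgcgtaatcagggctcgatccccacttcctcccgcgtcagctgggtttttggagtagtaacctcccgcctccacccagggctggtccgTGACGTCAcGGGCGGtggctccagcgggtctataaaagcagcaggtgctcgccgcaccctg
Tgfa: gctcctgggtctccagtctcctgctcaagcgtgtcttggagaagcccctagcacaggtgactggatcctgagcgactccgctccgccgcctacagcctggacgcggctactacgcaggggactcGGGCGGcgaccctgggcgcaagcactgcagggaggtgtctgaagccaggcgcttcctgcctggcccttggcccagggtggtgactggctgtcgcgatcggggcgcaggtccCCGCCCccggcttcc
Btc: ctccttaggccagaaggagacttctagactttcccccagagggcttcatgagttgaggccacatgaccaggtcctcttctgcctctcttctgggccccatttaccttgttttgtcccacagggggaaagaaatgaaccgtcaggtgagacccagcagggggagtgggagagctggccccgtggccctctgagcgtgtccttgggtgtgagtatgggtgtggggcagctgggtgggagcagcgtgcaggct
Areg held TGACGTCA at 61 bases and GGGCGG at 52 bases before the start. Tgfa held GGGCGG at 126 bases and, on the other strand, at 15 bases before the start, and Btc held neither. Of 32851 promoter windows of this length, 1.55% held TGACGTCA and 32.7% GGGCGG. The shorter TGACG, which TGACGTCA contains, was in the windows of Areg, Btc and Erbb2 and in 17.8% of all windows, and TGANTCA (the AP-1 element) was in none of the 6 members with an entry and in 6.75% of all windows. A match describes these letters and no binding.

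Likeness in pattern was read as Pearson's r of log2(CPM + 1) over the 17 group means, among 15274 genes with at least 4 CPM in a group. It is a description of points that share mice and libraries. Erbb2 was most like Epb41l4a (r = 0.987), Cep112 (0.982) and Etv5 (0.982), and Erbb3 most like 0610040J01Rik (0.995). Egfr was most like Tmem30b (0.986), Tgfa most like Acvr1 (0.980), and Btc most like Abhd11os (0.977). Hbegf followed Snai1 (0.955) and Plk2 (0.933), Nrg1 followed Gnb2 (0.963), Areg followed F2rl1 (0.918), Ereg followed Lif (0.874) and Erbb4 followed Gm38910 (0.969). Within the family the closest pairs were Egfr with Erbb3 (0.961), Btc with Erbb2 (0.932) and Erbb3 with Tgfa (0.911).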

How the data were processed

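RNA-seq expected counts per gene were deposited as 1 table for 49 libraries. Per the submitters' processing notes, the authors worked on mm10 with STAR 2.7.9a and RSEM 1.3.1, besides cutadapt 3.5 and FastQC 0.11.9. The annotation release and strand setting are not given in the sources used here. The deposited expected counts were rounded to whole numbers. In R 4.3.3, edgeR 4.0.16 (limma 3.58.1) quasi-likelihood tests were run after filterByExpr (minimum count 10) and TMM scaling, with Benjamini-Hochberg adjustment over all genes tested and calls at an adjusted p under 0.05, two-sided. DESeq2 1.42.0, RLE scaling, no filter, a replicate block, a shared spread, removal of mitochondrial transcripts, plain totals, BP in place of PBS mice and each library left out were alternatives. The fits were tested on simulated data.

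NA and BP bulk libraries of 1 number come from 1 mouse, per the labels. Their deviations correlated at -0.102 to 0.699. NA tumor 1, spleen 3, liver 2 and 3 and marrow 1 correlated best with a bulk library of another mouse. Organ pieces of 1 mouse are not independent, and with 3 mice a group the p-values measure the spread among those mice. Replicates differed beyond sampling noise (lowest chi-square per degree of freedom 8.43). All 10 members are named in each comparison; of each other list up to 4 called genes with the smallest adjusted p are named, and for likeness up to 3 genes, of which 1 is not reported here. The members and lists were chosen with earlier results of these data known. Lengths come from GENCODE M21.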

Additional observations from a re-analysis of the deposited data

Results flagged for a closer look

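The difference between NA cells and BP bulk tissue was itself different between organs for 10 pairs of member and organ, by a test of that difference in 1 fit of 8 groups (edgeR, adjusted over all genes). On the log2 scale, tumor against the mean of the other 3 organs gave 2.06 for Erbb3, 1.64 for Egfr, 1.55 for Hbegf and 1.65 for Tgfa. Liver gave 3.01 for Erbb2, -3.69 for Erbb3, -1.78 for Egfr and 1.997 for Hbegf. Spleen gave -2.42 for Erbb2, and bone marrow -2.81 for Hbegf. A difference between organs does not by itself show a change within 1 of them. Of these pairs, 3 did not pass within the organ alone by edgeR. They were Erbb3 in tumor (0.95 ± 0.34, adjusted p = 0.105), Egfr in tumor (0.44 ± 0.23, adjusted p = 0.230) and Erbb2 in spleen (-1.23 ± 0.51, adjusted p = 0.0915). The mean each is set against includes liver, at -3.30 ± 0.34 for Erbb3, -2.07 ± 0.27 for Egfr and 2.96 ± 0.39 for Erbb2. The lone NA lymph node library entered no test. It had 76.3 CPM of Hbegf and 1.05 CPM of Nrg1, each above all 3 BP and all 3 PBS lymph node libraries, with the dissociation list at 5302 CPM in it and at 182 to 317 CPM in BP lymph nodes.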

How the results depend on the processing

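Counts of members called and member levels kept their size in 571 of 589 alternatives and moved in 18, and single members kept direction and side of the threshold in 1382 of 1434, with 40 weaker, 8 passing anew and 4 reversed. The members called in NA tumor cells numbered 0 to 3 with 1 library left out and 2 with the replicate block; those in NA marrow cells numbered 0 to 1 with 1 library left out, 2 with the replicate block and 0 with the spread shared over all libraries; those in BP against PBS tumor numbered 1 with the shared spread. Leaving out 1 library gave 3 to 5 members for PBS lymph node, and for the difference between fractions 2 to 4 in tumor, 1 to 2 in spleen and 0 to 1 in bone marrow. The share of all genes called in each alternative is not given beside these counts. With 1 library left out, BP against PBS ran from -2.11 to 0.75 for Hbegf in tumor, -0.34 to 0.033 for Erbb2 in lung and -0.40 to 0.042 for Erbb3 in liver, and Areg in PBS tumor from -4.39 to 6.04, a fitted value against organs at 0. The causes were not tested. The replicate block paired NA with BP bulk libraries by mouse and PBS organs by mouse; of the members given with their values it changed only the calls of Areg and Ereg in tumor, Erbb2 in spleen and Nrg1 in marrow, and it brought the PBS lung count to 7. BP and PBS mice share only a number (correlations of deviations from -0.243 to 0.489, not every sample best with its own number), and the block left their 0 calls at 0. Scaling by RLE moved the median member by -0.09 to 0.05 on the log2 scale. Ereg stayed under 1 CPM in every library, so small differences in it were not detectable at this depth.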
